A study of Danio rerio with 6 samples.

Results

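Inflammation begins when resident cells sense damage or microbes and release cytokines and chemokines. These ligands act through receptors that feed the NF-κB and STAT transcription factors, which in turn switch on enzymes, matrix proteases, acute phase proteins and their own inhibitors. At the stage studied here a zebrafish embryo has innate leukocytes, neutrophils and macrophages, but its adaptive immune system is still immature. The genes described here are the inducible mediators of that response and the markers of the leukocytes that carry and answer it.

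The members were chosen by name, from 42 names: the identifier ENSDARG00000062788, whose symbol is irg1l, and 41 gene symbols looked up in a table of zebrafish gene names with case ignored. Where only a capital symbol without its paralogue suffix was listed, as for 7 names, that symbol was used. Every identifier with a matched symbol was counted, so that PTGS2, TIMP2 and MPEG1, reached through such a stem, and MFAP4, matched directly, each stand for several identifiers. Reads of such near relatives may match each other, and their separate values are uncertain. In all 39 names matched 52 identifiers, of which 46 of the 24462 genes in the table are counted here, 26 inducible mediators and 20 leukocyte markers. The names crp, saa and mpx were not matched. The identifiers of il6, il11a and tnfa, 2 of TIMP4 and 1 of MPEG1 were not among the rows used here.

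Whole zebrafish embryos of the Tropical 5D strain, which is wild type, were profiled with libraries that read the 3′ ends of transcripts. The FBSA group lived from 8 to 48 h after fertilization in 47 µM FBSA, or perfluorobutane sulfonamide, a perfluorinated compound with a short carbon chain, dissolved with 0.5% methanol. The control group had 0 µM FBSA and the same methanol. Embryos of both groups had their chorions removed at 4 h, were kept in 96-well plates, and were sampled at 48 h as 3 pools of 10 embryos per group, 1 library each. A pool mixes all tissues, so a level cannot be tied to a cell, and fewer cells of a type and less RNA per cell cannot be told apart.

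Library totals ran from 27719471 to 33356411 reads in the FBSA libraries and from 23906021 to 32108756 in the control libraries. A normalized count is a read count divided by the size factor of its library, and 1 read was worth between 0.838 and 1.19 normalized counts. Nothing in the labels says whether the pools came from separate clutches, so the tests compare differences with the spread among the pools sequenced, part of which may be technical. Along the leading principal component of all genes tested, which held 34.3% of the variance, FBSA replicate 2 and control replicate 2 lay at the opposite ends, at −54.0 and 65.5. Values without these libraries are given beside the results that they move most.

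Of the 46 members, 31 reached 10 normalized counts in 3 or more of the libraries and were tested. None of these reached 10 in the 3 FBSA libraries while no control did. For cxcl8a, cxcl18b, nfkb1, hamp and LCP1, however, all 3 FBSA libraries reached 10 and fewer than 3 controls did. The FBSA values thus helped these genes past the filter. Among the tested members 2 rose with FBSA, irg1l and nfkbiaa, 0 fell and 29 did not pass (limma, Benjamini-Hochberg adjusted p under 0.05 over 16890 genes). Of all genes tested, 0.705% passed in either direction and 0.568% were higher with FBSA. Both genes that rose were inducible mediators, of which 19 were tested. The median log2 fold change was 0.56 over these 19 mediators and 0.082 over the 12 leukocyte markers tested, beside −0.0009 over all genes tested. It was positive for 24 of the 31 tested members and for 49.8% of all genes tested. As the members were chosen with earlier results of these data known, such comparisons with all genes are description only. The difference between the mediators and the leukocyte markers was not tested.

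**Figure D1:**
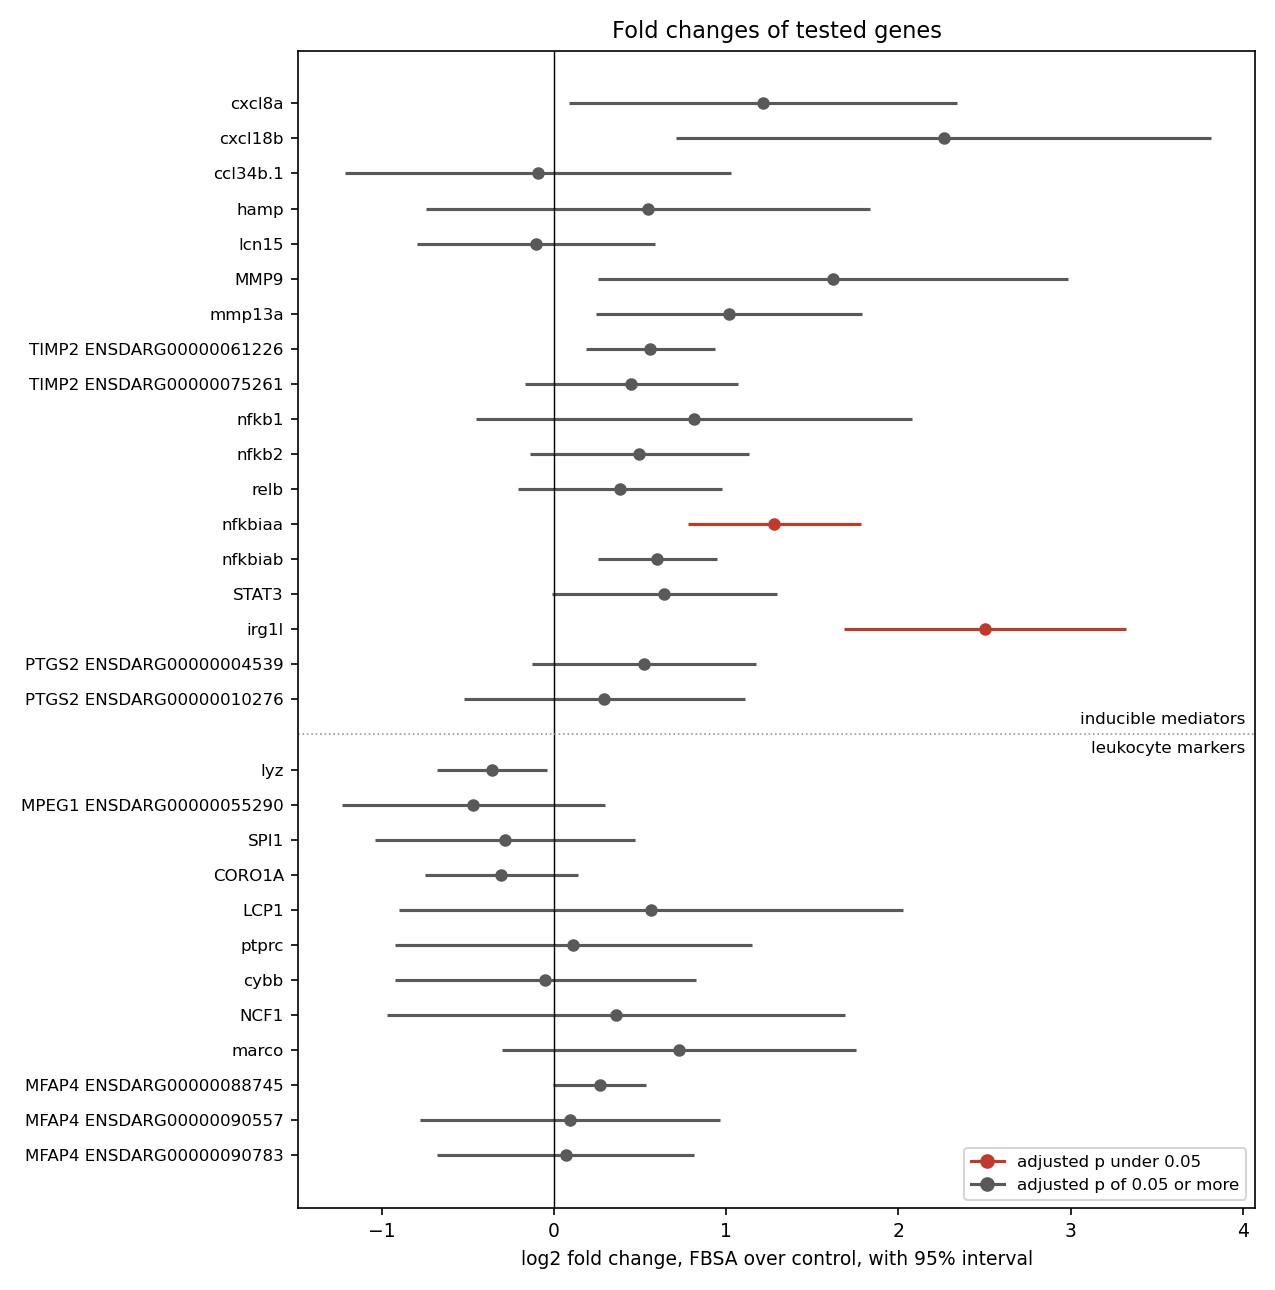
Log2 fold change of 30 of the tested members, FBSA over control, with its 95% interval from the limma fit (n = 3 libraries per group, zero line marked), mediators above the dotted line and leukocyte markers below it. The intervals of irg1l and nfkbiaa, in red, lie furthest from zero relative to their width, and 16 of the 18 mediators drawn, against 7 of 12 leukocyte markers, have a positive value.

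The gene irg1l is named as a relative of immunoresponsive gene 1, whose mammalian product makes itaconate in activated macrophages. It had 264, 524 and 181 normalized counts in the FBSA libraries, against 76.3, 48.6 and 35.2 in the control libraries. Every FBSA library lay above every control, with the highest value in FBSA replicate 2. The means were 323 ± 179 with FBSA and 53.4 ± 21.0 in control (SD, n = 3 each), and irg1l rose 5.67-fold (log2 fold change 2.50 ± 0.38 SE, 95% interval 1.68 to 3.32, limma adjusted p = 0.00932). Leaving out FBSA replicate 2 gave a log2 fold change of 2.08 (limma adjusted p = 0.0321), and leaving out both libraries numbered 2 gave 2.05 (limma adjusted p = 0.0206). The gene stayed past the threshold in each of the 18 alternative fits, the largest limma adjusted p being 0.0498, without FBSA replicate 1.

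Inhibitors of NF-κB hold the factor in the cytoplasm and are themselves among its targets. One of them, nfkbiaa, had 325, 402 and 349 normalized counts in the FBSA libraries, against 112, 135 and 208 in the control libraries, and the groups did not overlap. It rose 2.43-fold, with means of 358 ± 39.5 with FBSA and 152 ± 50.2 in control (SD, n = 3 each; log2 fold change 1.28 ± 0.23 SE, limma adjusted p = 0.0253). The call did not hold when a library was left out, except without control replicate 3 (limma adjusted p = 0.0119). The limma adjusted p was 0.0849, 0.12 and 0.0745 without FBSA replicates 1, 2 and 3, and 0.061 and 0.0641 without control replicates 1 and 2, while the log2 fold change stayed between 1.09 and 1.53. Without both libraries numbered 2 the values were a log2 fold change of 1.14 and a limma adjusted p of 0.0964.

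Its paralogue nfkbiab had 1034, 1283 and 1223 normalized counts with FBSA and 782, 629 and 945 in control, also without overlap. Its log2 fold change of 0.60 ± 0.16 SE did not pass (limma adjusted p = 0.131). The NF-κB subunit genes did not pass either. Of these, nfkb1 had 14.7, 22.5 and 15.2 normalized counts with FBSA and 7.55, 9.49 and 11.4 in control, so that its groups were apart at a low level (log2 fold change 0.81, limma adjusted p = 0.572). For nfkb2 the values were 180.1, 383 and 159 with FBSA and 177, 149 and 147 in control, and FBSA replicate 2 stood alone above the rest. The gene relb, of the non-canonical branch, had 141, 191 and 122 with FBSA and 102, 90.1 and 159 in control, which overlap. The log2 fold changes of nfkb2 and relb were 0.50 and 0.38 with all libraries and 0.069 and 0.040 without both numbered 2, where that of nfkbiab was 0.39. TNFAIP3, which encodes a ubiquitin-editing brake on the pathway, reached at most 7.11 normalized counts in any library and was not tested.

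STAT3 relays signals of the interleukin 6 family and is an inducer of acute phase genes in mammals. It had 137, 248 and 103 normalized counts with FBSA and 101, 93.7 and 96.5 in control. The FBSA libraries were all higher, but the spread was wide in FBSA (162 ± 75.9) and narrow in control (97.0 ± 3.47; SD, n = 3 each), and the log2 fold change of 0.64 ± 0.30 SE did not pass (limma adjusted p = 0.373). Without both libraries numbered 2 the log2 fold change of STAT3 was 0.26.

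**Figure D2:**
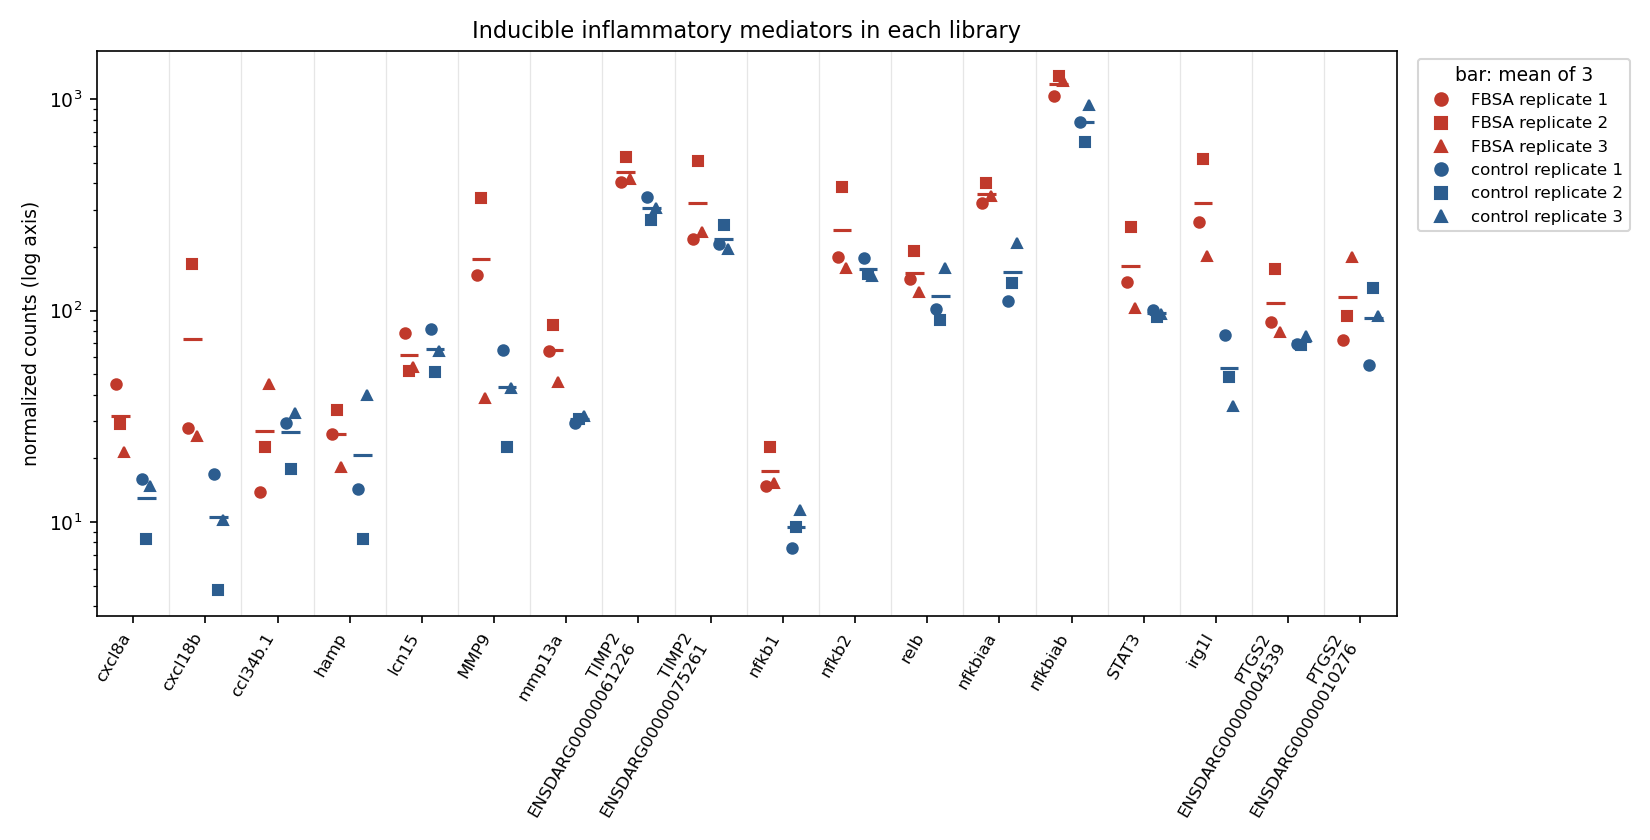
Normalized counts (log axis) of 18 tested inducible mediators in each library, FBSA left of control for each gene, symbols marking the replicate and bars the mean of 3. FBSA replicate 2, the red square, is the highest library for 13 of the genes. The groups overlap for ccl34b.1, hamp, lcn15, MMP9, TIMP2 ENSDARG00000075261, nfkb2, relb and PTGS2 ENSDARG00000010276.

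Chemokines recruit leukocytes, and both chemokine genes known as neutrophil attractants that could be tested lay higher in every FBSA library than in any control, without passing the test. Their FBSA values helped both past the filter, which favoured this separation. Of all genes tested, 10.0% had every FBSA library above every control. The gene cxcl8a, an orthologue of the human chemokine CXCL8, had 45.0, 29.1 and 21.3 normalized counts with FBSA and 15.9, 8.30 and 14.8 in control (log2 fold change 1.21 ± 0.52 SE, limma adjusted p = 0.331). The gene cxcl18b had 27.7, 166 and 25.4 with FBSA and 16.8, 4.74 and 10.2 in control, and FBSA replicate 2 was far above the other libraries. Its log2 fold change was 2.26 ± 0.72 SE (limma adjusted p = 0.193), 1.40 without FBSA replicate 2 and 0.96 without both libraries numbered 2. The paralogue cxcl8b.1 was too low to be tested under the filter. It had 16.4, 17.8 and 6.10 normalized counts with FBSA and 5.87, 0 and 3.41 in control, and fitted without a filter its log2 fold change was 2.09 ± 0.87 SE (limma adjusted p = 0.381).

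The CC chemokine gene ccl34b.1 showed no such separation. Its values were 13.9, 22.5 and 44.7 normalized counts with FBSA and 29.3, 17.8 and 32.9 in control, and the 95% interval of its log2 fold change ran from −1.21 to 1.03. Of the cytokine genes proper, the central early cytokine il1b was close to undetected, with 1, 0 and 0 reads with FBSA and 3, 0 and 0 in control. Both groups lay at or under 3 reads, so no fold is given. The gene il11b, of the interleukin 6 family, had 3.46, 0 and 3.05 normalized counts with FBSA and 4.19, 0 and 3.41 in control. The tumour necrosis factor gene tnfb had 44.2, 30.0 and 5.08 with FBSA and 0.838, 5.93 and 7.95 in control. Its FBSA replicates 1 and 2 were above all controls, but FBSA replicate 3 lay within their range, and without a filter its log2 fold change of 2.07 ± 0.90 SE did not pass (limma adjusted p = 0.404).

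Cyclooxygenase 2, encoded by PTGS2 genes, makes prostaglandins at inflamed sites. ENSDARG00000004539 had 88.3, 157 and 79.3 normalized counts with FBSA and 69.6, 68.8 and 76.1 in control, all FBSA libraries being higher (log2 fold change 0.52, limma adjusted p = 0.473). ENSDARG00000010276 had 72.7, 94.8 and 179.9 with FBSA and 55.3, 128 and 94.3 in control, which overlap, and here FBSA replicate 3 was the highest. Neither identifier passed, and without both libraries numbered 2 the log2 fold change was 0.20 for ENSDARG00000004539 and 0.66 for ENSDARG00000010276, against 0.29 for the second with all libraries.

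Matrix metalloproteinases cut collagen and other matrix proteins, and in zebrafish mmp9 and mmp13a are turned on at wounds. MMP9 had 147, 341 and 38.6 normalized counts with FBSA and 65.4, 22.5 and 43.2 in control. FBSA replicate 3 lay inside the control range and FBSA replicate 2 far above it. With all libraries its log2 fold change of 1.62 ± 0.63 SE did not pass (limma adjusted p = 0.283). It was 0.90 without FBSA replicate 2, 2.46 without FBSA replicate 3 and 0.50 without both libraries numbered 2. The gene mmp13a was more even, with 64.1, 85.4 and 45.7 with FBSA and 29.3, 30.8 and 31.8 in control, a 2.02-fold difference without overlap that did not pass (limma adjusted p = 0.237).

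TIMP genes encode inhibitors of these proteases. TIMP2 ENSDARG00000061226 had 405, 534 and 418 normalized counts with FBSA and 344, 268 and 306 in control, again apart (log2 fold change 0.56 ± 0.17 SE, limma adjusted p = 0.182; log2 fold change 0.34 without both libraries numbered 2). TIMP2 ENSDARG00000075261 had 217, 512 and 237 with FBSA and 206, 255 and 195 in control. Without FBSA replicate 2 its log2 fold change was 0.061, against 0.45 with all libraries. The TIMP4 identifier in the table had 0 reads in the 3 FBSA libraries and 0, 5.93 and 7.95 normalized counts in control. A count of 0 allows up to 3 reads, or 2.60 to 3.05 normalized counts, per FBSA library. The TIMP4 identifier was not tested under the filter. Fitted without a filter, its log2 fold change of −1.98 ± 0.86 SE did not pass (limma adjusted p = 0.407).

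Of the acute phase genes, the iron hormone gene hamp (hepcidin) and lcn15, of the lipocalin family, could be measured. The values of hamp were 26.0, 33.8 and 18.3 normalized counts with FBSA and 14.3, 8.30 and 39.7 in control, and control replicate 3 was the highest of the 6 libraries. For lcn15 they were 78.8, 51.6 and 53.9 with FBSA and 82.2, 51.0 and 64.7 in control. The log2 fold changes were 0.55 ± 0.59 SE and −0.10 ± 0.32 SE and the groups overlapped for both. The value of hamp rested on single libraries, with a log2 fold change of 0.075 without control replicate 2 and 1.14 without control replicate 3. It was 0.35 without FBSA replicate 2 and −0.13 without both libraries numbered 2.

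Over the 19 mediators tested, 11 had the 3 FBSA libraries above the 3 controls and 0 had them below, while 8 overlapped. Among the 11 were cxcl8a, cxcl18b and nfkb1, which their FBSA values helped past the filter. Of all genes tested, 19.9% were apart in either direction, 10.0% with FBSA above and 9.91% with FBSA below. The mediators were chosen with earlier results of these data known, so their counts are not independent of the data. At an unadjusted p under 0.05, 9 of the 19 mediators were higher and 0 lower, where 7.34% of all genes tested were higher and 6.25% lower. The 9 included cxcl8a and cxcl18b, so this count too was favoured by the filter. One library carried much of this difference. FBSA replicate 2 was the highest library for 14 of 19 mediators (73.7%), including all 7 NF-κB and STAT genes and all 4 proteases and inhibitors tested, and for 21.7% of all genes tested. Control replicate 2 was the lowest for 11 of 19 mediators (57.9%), and for 23.8% of all genes tested. The medians that follow include cxcl8a, cxcl18b, nfkb1 and hamp, all helped past the filter by their FBSA values. The median log2 difference of the 19 mediators from the control mean was 0.42, 1.15 and 0.46 in FBSA replicates 1, 2 and 3, and 0.054, −0.18 and 0.10 in control replicates 1, 2 and 3. The groups were therefore apart also in the other 2 FBSA libraries, at a smaller size, and without both libraries numbered 2 the median log2 fold change was 0.34. Medians over all genes tested were also apart on this measure, at 0.0138 to 0.0160 with FBSA and 0.0066 to 0.0097 in control.

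Leukocyte markers report on the number of these cells and on their RNA content, and 0 of the 12 tested passed in either direction (limma; 0 higher and 1 lower at an unadjusted p under 0.05; 0 with limma-voom). The lower one was lyz. Of all genes tested, 7.34% were higher and 6.25% lower at that level, and 0.705% passed. Of the 20 identifiers in the table, 7 had 0 reads in at least 1 library. Of the 12 tested, the 3 FBSA libraries lay above the controls for 1 and below them for 0, beside 10.0% and 9.91% of all genes tested. Counts this small cannot be told from those shares. The summed level of all 20 marker identifiers ran from 4037 to 4619 normalized counts in the FBSA libraries and from 4589 to 5875 in the control libraries, most of it lyz. Without lyz, the other 19 identifiers summed to 1472, 1596 and 1334 normalized counts with FBSA and 1343, 1305 and 1355 in control. FBSA replicates 1 and 2 thus lay above the controls and FBSA replicate 3 within their range. A large part of this sum was MFAP4 ENSDARG00000088745, with 823, 842 and 807 with FBSA and 635, 702 and 722 in control. With this identifier also left out, FBSA replicate 1 falls within the control range and FBSA replicate 3 below it, while FBSA replicate 2 stays above. The 31 tested genes of a wider list of neutrophil and macrophage markers, described with the other lists, summed to between 91192 and 95903 with FBSA and between 78193 and 91863 in control, most of it from the apolipoprotein genes apoc1 and apoeb. Without these 2 genes the sums were 17418, 19263 and 16857 with FBSA and 16768, 12013 and 16053 in control. All FBSA libraries were higher, but FBSA replicate 3 only just exceeded control replicate 1. A large part of these sums was cfl1l, with 5805, 6997 and 5851 with FBSA and 5713, 2349 and 5549 in control. The separation of the sums is lost without cfl1l, and it is also lost without LGMN. LGMN had 1765, 2021 and 2382 with FBSA and 1534, 1389 and 1361 in control. Another large part was arhgdig, with 5679, 4611 and 5138 with FBSA and 5338, 5246 and 5157 in control. How much RNA of these abundant genes came from leukocytes was not tested. The sums are thus no measure of leukocyte content. The part of leukocyte content in the mediators' values was not tested.

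**Figure D3:**
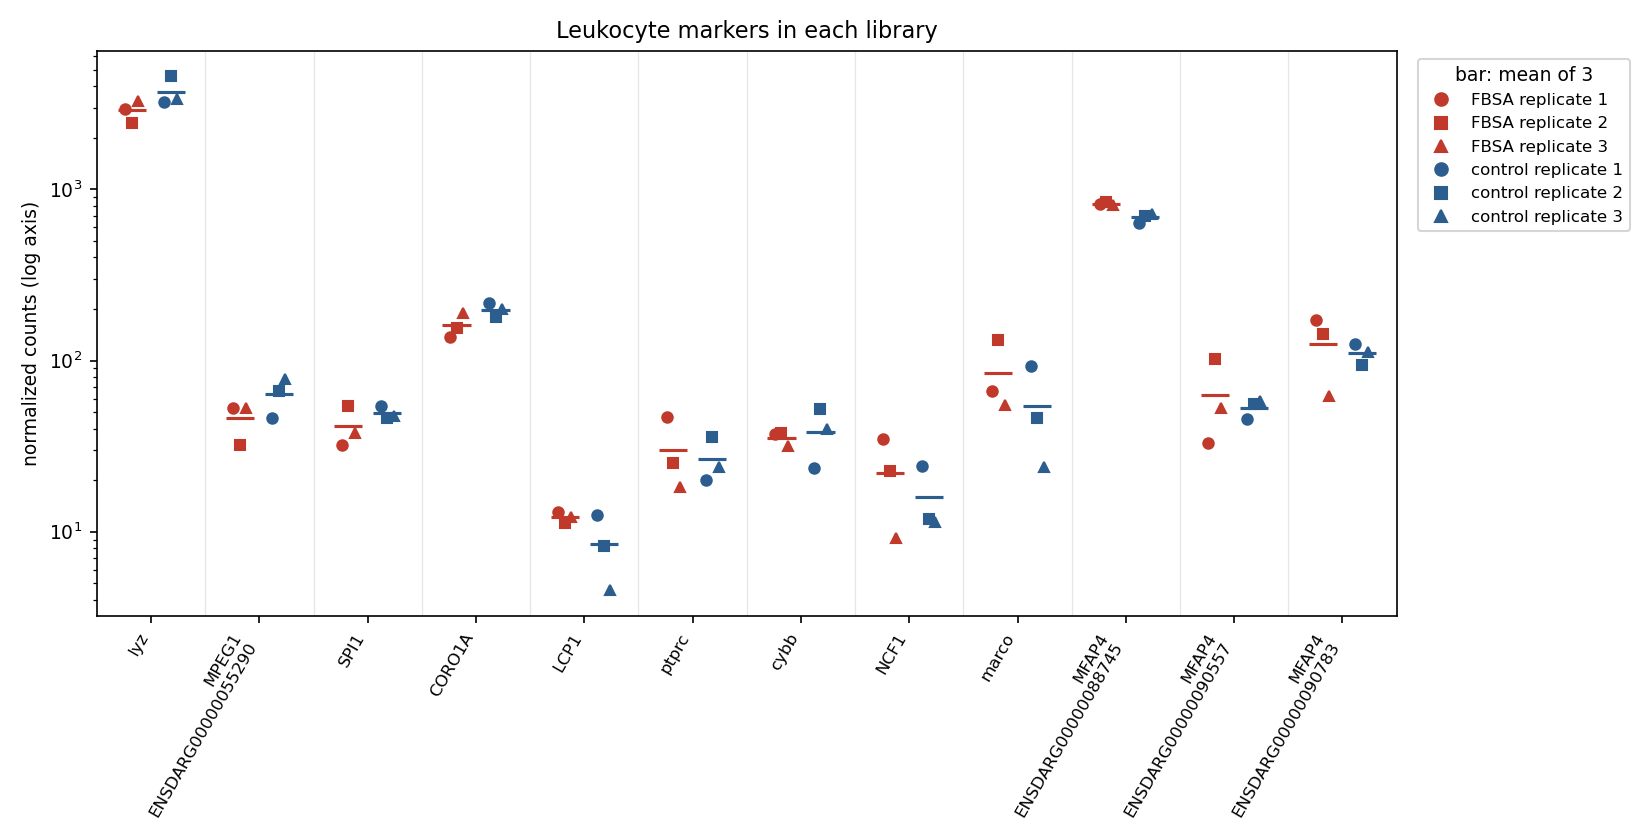
Normalized counts (log axis) of the 12 tested leukocyte marker identifiers in each library, FBSA left of control for each gene, symbols marking the replicate and bars the mean of 3. The groups overlap for all but MFAP4 ENSDARG00000088745, whose FBSA libraries lie between 807 and 842 and whose controls lie between 635 and 722.

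The lysozyme gene lyz, expressed in neutrophils and in part of the macrophages, had 2951, 2442 and 3284 normalized counts with FBSA and 3246, 4570 and 3375 in control. FBSA replicate 2 was the lowest and control replicate 2 the highest, the reverse of their order for most mediators. Its log2 fold change of −0.36 ± 0.15 SE did not pass (95% interval −0.68 to −0.041, limma adjusted p = 0.304), and it was −0.088 without both libraries numbered 2. CSF3R, the receptor that drives neutrophil production, was low, with 0, 12.2 and 0 normalized counts with FBSA and 10.1, 4.74 and 4.54 in control. It was not tested under the filter, and without a filter its log2 fold change of −1.58 ± 0.99 SE did not pass (limma adjusted p = 0.602).

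Macrophage markers varied without a common direction. MPEG1, which encodes the pore-forming perforin 2 and is the standard zebrafish macrophage marker, was measured through ENSDARG00000055290, with 52.8, 31.9 and 52.8 normalized counts with FBSA and 46.1, 66.4 and 78.4 in control (log2 fold change −0.47, 95% interval −1.23 to 0.29). ENSDARG00000043093, with the same symbol, had at most 7.95 in any library. The scavenger receptor gene marco had 66.7, 131 and 54.9 with FBSA and 93.1, 46.3 and 23.8 in control, which overlap (log2 fold change 0.73, 95% interval −0.30 to 1.76). Without both libraries numbered 2 the log2 fold changes were −0.18 for MPEG1 and 0.35 for marco. The gene csf1ra, the receptor of colony stimulating factor 1 in macrophages and also a pigment cell gene in zebrafish, had 15.6, 10.3 and 2.03 with FBSA and 3.35, 1.19 and 4.54 in control. It was not tested under the filter, and without a filter its log2 fold change of 1.14 ± 0.84 SE did not pass (limma adjusted p = 0.665).

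The symbol MFAP4, that of a macrophage gene in zebrafish, is shared by 8 identifiers. Which of these are expressed in macrophages was not tested. The most abundant, ENSDARG00000088745, had 823, 842 and 807 normalized counts with FBSA and 635, 702 and 722 in control (log2 fold change 0.27 ± 0.12 SE, limma adjusted p = 0.375). ENSDARG00000090557 and ENSDARG00000090783 had log2 fold changes of 0.095 and 0.069 and overlapped. The other 5 were too low to be tested, and 2 of them, ENSDARG00000038681 and ENSDARG00000116066, had 7.55 normalized counts in control replicate 1 and 0 elsewhere.

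Genes shared by leukocytes in general gave the same range of values. SPI1, the transcription factor PU.1 of myeloid cells, had 32.0, 54.4 and 37.6 normalized counts with FBSA and 54.5, 46.3 and 47.7 in control. CORO1A, an actin regulator, had 138, 156 and 190.0 with FBSA and 216, 179 and 199 in control (log2 fold change −0.30, 95% interval −0.75 to 0.14). LCP1, which encodes the actin-bundling protein L-plastin, had 13.0, 11.3 and 12.2 with FBSA and 12.6, 8.30 and 4.54 in control.

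The pan-leukocyte phosphatase gene ptprc (CD45) had 46.8, 25.3 and 18.3 with FBSA and 20.1, 35.6 and 23.8 in control. The genes of the phagocyte oxidase, cybb and NCF1, had log2 fold changes of −0.049 ± 0.40 SE and 0.36 ± 0.61 SE, and without both libraries numbered 2 that of NCF1 was 0.10. At these levels the intervals are wide. That of LCP1 ran from −0.90 to 2.03 and that of NCF1 from −0.97 to 1.69, so both include a difference as large as that of nfkbiaa.

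Further genes of the same pathways were counted from fixed lists, leaving out the members themselves. None of the lists held a gene past the threshold, in limma or in limma-voom. The list named receptors of the mediators also holds sensors of microbes, such as tlr3 and NOD2, and receptors such as CXCR4 whose ligands are not members. It is thus wider than its name. Of its 11 genes tested, 3 (27.3%) were higher and 0 lower at an unadjusted p under 0.05, beside 7.34% higher of all genes tested. The list's median log2 fold change was 0.43. The list's median log2 difference from the control mean overlapped between groups, at 0.87, 0.56 and 0.214 in the FBSA libraries and 0.215, −0.36 and 0.19 in the control libraries, and control replicate 2 was the lowest for 6 of the 11 genes. Named after their values were seen, the 3 were tnfrsf1a, a receptor of tumour necrosis factor, NOD2, an intracellular sensor of bacterial cell wall, and CXCR4 ENSDARG00000041959, a chemokine receptor. Their means were 159.5 ± 25.4, 96.6 ± 8.27 and 466 ± 55.0 normalized counts with FBSA, against 87.3 ± 20.9, 48.2 ± 13.7 and 321 ± 75.9 in control (SD, n = 3 each; limma adjusted p = 0.168, 0.174 and 0.241).

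Of 22 other genes of gp130 and JAK-STAT signalling tested, 3 (13.6%) were higher and 0 lower at an unadjusted p under 0.05, with a median log2 fold change of 0.054, beside 7.34% higher of all genes tested. The 3, again named after their values were seen, were il6st, which encodes the shared receptor chain gp130 of the interleukin 6 family, the kinase gene JAK1 and PIM1, a STAT target. The gene il6st had 853, 1399 and 702 normalized counts with FBSA and 527, 552 and 497 in control, without overlap (log2 fold change 0.84 ± 0.21 SE, limma adjusted p = 0.105). Of 19 other NF-κB pathway genes, 2 (10.5%) were higher and 0 lower at an unadjusted p under 0.05, a share near the 7.34% of all genes tested. They were map3k14a, the kinase of the non-canonical branch, and IRAK3, an inhibitor of receptor signalling. Their log2 fold changes were 0.68 and 1.47 (limma adjusted p = 0.304 and 0.348) and the list's median was 0.095. IRAK3 was low, with 28.6, 28.2 and 11.2 normalized counts with FBSA and 10.1, 7.12 and 4.54 in control. Its FBSA values helped it past the filter.

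**Figure D4:**
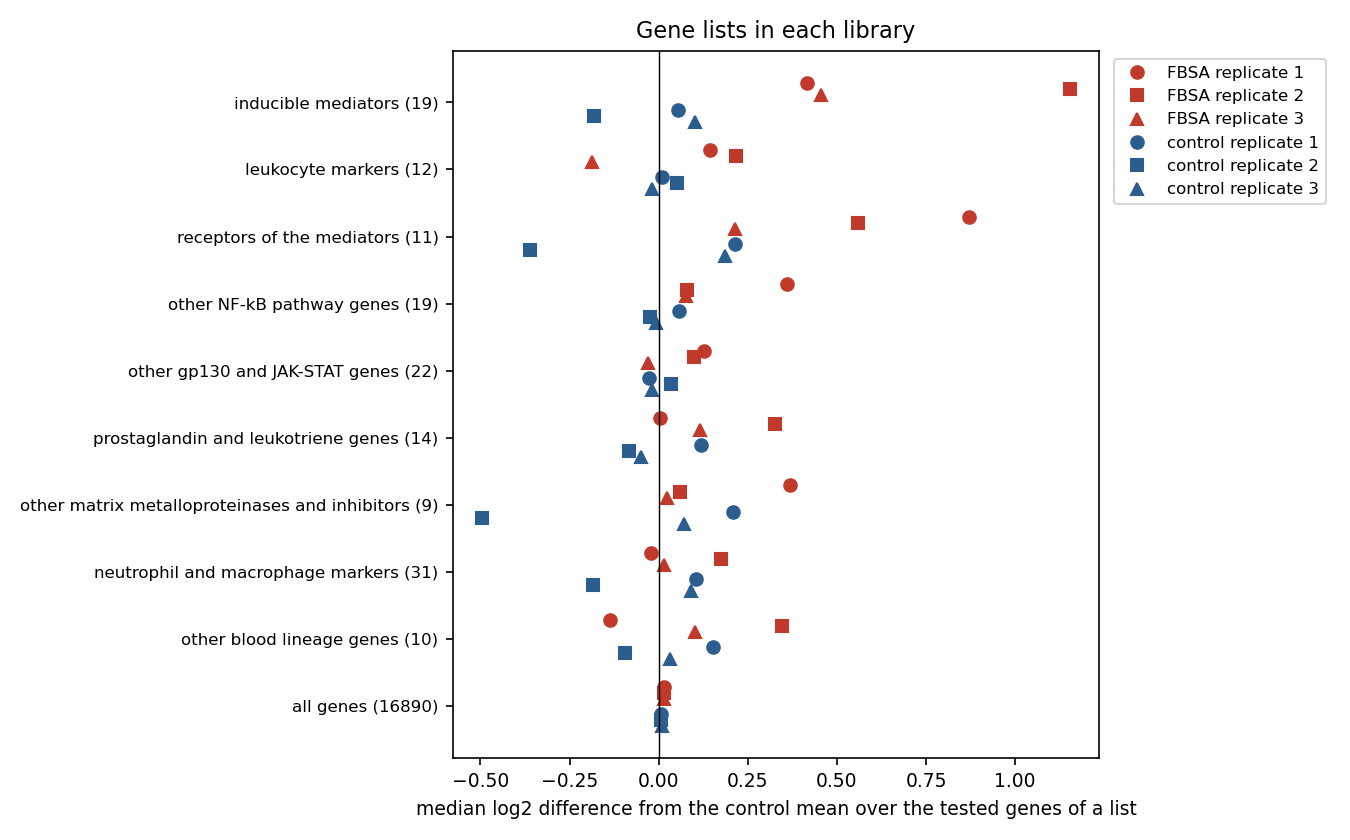
Median log2 difference from the control mean over the tested genes of each list, 1 point per library, FBSA drawn above control, with the number of genes in brackets. The mediators are apart between groups, with FBSA replicate 2 at 1.15. The other NF-κB pathway genes are also apart, at 0.36, 0.079 and 0.076 with FBSA and at most 0.058 in control. The leukocyte markers and the wider list of 31 neutrophil and macrophage markers overlap. The points of all genes lie together near 0, with those of FBSA slightly above those of control.

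Among 14 prostaglandin and leukotriene genes, 3 (21.4%) were higher and 1 (7.14%) lower at an unadjusted p under 0.05, beside 7.34% and 6.25% of all genes tested, with a median log2 fold change of 0.19. The higher were ptgdsb.1 and ptgdsb.2, prostaglandin D synthase genes, and ptgs1, the constitutive cyclooxygenase gene, and the lower was LTA4H, of leukotriene synthesis (named after their values were seen). Of 9 other metalloproteinase and inhibitor genes none was past that level. The wider list of 31 neutrophil and macrophage markers had 4 (12.9%) higher and 0 lower at an unadjusted p under 0.05, beside 7.34% higher of all genes tested, and a median log2 fold change of 0.0065. Those 4 were LGMN and ctss2.1, lysosomal protease genes, lgals9l1, of the galectin family, and nccrp1, with limma adjusted p between 0.105 and 0.349. FBSA replicate 2 was the highest library for 12 of the 31 (38.7%), beside 21.7% of all genes tested. Control replicate 2 was the lowest for 12 (38.7%), beside 23.8% of all genes tested. Of 10 genes of other blood lineages, such as erythroid and stem cell genes, 0 were past that level in either direction, and the median was −0.014.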

How the data were processed

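The authors deposited 1 table of log2 values for 24462 Ensembl genes in 6 libraries. Per the labels' protocols, libraries were made with the Lexogen QuantSeq 3′ FWD kit, while STAR, HTSeq, DESeq2 and the build GRCz11 appear in the submitters' processing notes. How multiply matching reads were treated is not given in the sources used here. As the table's header has 6 names and none for the gene column, names were shifted by 1 cell. Read unshifted, control replicate 3 would bear an FBSA name, and results without it are among the alternatives. Over a floor of 6.52 the values follow a variance-stabilising curve. Undoing it gave reads divided by 1 size factor per library, with 100.0% of values above the floor within 0.1 of a whole read. The recovery was tested on simulated reads. Every pair of libraries differed beyond sampling noise (chi-square per degree of freedom 10.1 to 52.3).

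Log2(normalized count + 1) was fitted with limma 3.58.1 in R 4.3.3 (group as the only term, trend, two-sided, 95% intervals, Benjamini-Hochberg adjustment over 16890 genes that reached 10 normalized counts in 3 or more libraries). Because 1 was added before taking logs, fold changes on the log2(value + 1) scale are too small for low genes. The fit was tested on simulated counts. Symbols came from a gene-name table that matched 22817 identifiers and are printed as it gives them. Members are named, except 1 symbol whose 2 identifiers enter the counts but are not reported here, and of the other lists those that passed or that a small count refers to. The members and lists were chosen with earlier results of these data known. Limits from a count of 0 cover counting error only. No sequences were used here, so the planned motif counts in promoters were not made. Figures were drawn with matplotlib 3.10.9 in Python 3.11.15.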

Additional observations from a re-analysis of the deposited data

How the results depend on the processing

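The 18 alternatives covered the pseudocount, the deposited log2 scale, the filter, the scaling, moderation, limma-voom, the replicate number as a block and libraries left out. Of the 31 tested members 22 kept their direction under all of them, 15 of these being mediators, and 0 gained a call. With the replicate block 47 genes passed, 40 higher and 7 lower, and 1 member, since nfkbiaa was lost (limma adjusted p = 0.0777). The numbers gave no sign of pairing. Same-numbered libraries correlated at 0.021, −0.14 and −0.0046 in their deviations from the group mean. Differently numbered libraries correlated at −0.14 to 0.13, and 3 libraries per group are too few to exclude pairing. With 1 library left out, 53 to 102 genes passed, 46 to 87 higher and 4 to 23 lower, with 1 to 2 members among them (53 genes and both members without control replicate 3). The median over leukocyte markers then ran from −0.10 to 0.21, and it was −0.10 with no filter beyond 1 read, so it has no stable sign. Without both libraries numbered 2, 1 member passed, and the sign turned for hamp (−0.13), cybb (0.16) and MFAP4 ENSDARG00000090557 and ENSDARG00000090783 (−0.29 and −0.20). For cybb it also turned in limma-voom (0.023). Leaving out 1 library turned the sign of 8 genes that had not passed, with ranges of −0.52 to 0.29 for ccl34b.1, −0.29 to 0.068 for lcn15, −0.074 to 0.57 for PTGS2 ENSDARG00000010276, −0.25 to 0.41 for ptprc, −0.36 to 0.20 for cybb, −0.042 to 0.86 for NCF1, −0.33 to 0.47 for MFAP4 ENSDARG00000090557 and −0.22 to 0.51 for ENSDARG00000090783. The causes were not tested.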
